A study of Homo sapiens with 3 samples.

Results

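Described here are genes of mitosis and of the step from G2 into mitosis, in RNA-seq libraries of HepG2 cells, an established human liver cancer line. The group is a list of 34 gene symbols, each of which matched 1 of the 62680 rows of the deposited tables. The cells, all labelled wild type, received for 48 h either A740003 at 20 µM, A438079 at 20 µM, or PBS as the control. The labels give A740003 and A438079 as antagonists of P2X7, an ion channel opened by extracellular ATP. What the compounds were dissolved in is not stated in the labels, so solvent and compound cannot be told apart. Each treatment was 1 library. No difference below therefore has a replicate check, no p-value was computed, and every interval covers counting error only.

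Entry into mitosis is driven by the kinase CDK1 bound to A- and B-type cyclins, and CDC25 phosphatases switch it on by removing inhibitory phosphates. PLK1 and the Aurora kinases help to build the spindle, and the spindle checkpoint restrains the anaphase-promoting complex until all kinetochores are attached. Many of these genes are transcribed late in the cell cycle through MuvB complexes with B-MYB and FOXM1. In bulk RNA, fewer cells in G2 and mitosis and less RNA per such cell cannot be told apart.

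The libraries were of like depth, with 19375523 to 19735589 expected counts. Hepatocyte genes were abundant, with the albumin gene ALB at 95722 to 125391 counts and HNF4A at 3830 to 3939, although the transthyretin gene TTR had only 88 to 149. With A740003, APOB stood at 1.39 times the PBS level, APOH and AFP at 0.712 and 0.713 times, and TTR at 1.65 times, the 1 call among 14 hepatocyte genes. Among the listed markers of other cell types, COL1A1, COL1A2, COL3A1, DCN and LUM of fibroblasts had 0 counts in all 3 libraries. The same held for CDH5, VWF and KDR of endothelium and for PTPRC and CD3E of leukocytes. PECAM1, also listed for endothelium, had no row under that symbol. Others on these lists were present, with ACTA2, of stellate cells and myofibroblasts, at 381 to 418 counts, LYZ at 18310 to 20090 and CD68 at 632 to 758, while PDGFRB, CD14, STAB2 and CD79A had at most 10. The part of these differences in the results below was not tested.

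All 34 genes were well measured in each library, with mean levels from 24.6 CPM (counts scaled to a common library size) for INCENP to 1402 CPM for TOP2A. Their median was 157 CPM, against 22.5 CPM over the 12270 genes whose mean reached 1 CPM, to which comparisons were limited. Together they held 149860 counts with A740003, 145280 with A438079 and 134277 with PBS. As a share of all counts this was 0.759% (exact Clopper-Pearson 95% interval 0.756% to 0.763%), 0.741% (0.737% to 0.745%) and 0.693% (0.689% to 0.697%). PBS was thus the lowest of the 3 libraries for the sum. TOP2A, the gene of the topoisomerase that untangles sister chromosomes, supplied 30931, 28168 and 23293 of those counts. On the length-corrected scale of the authors' FPKM, the highest levels in the PBS library were those of PTTG1 (284 FPKM), CCNB1 (281 FPKM), CDK1 (274 FPKM) and TOP2A (227 FPKM). The lowest were those of CENPE (11.9 FPKM), CDC25B (13.0 FPKM), INCENP (14.2 FPKM) and FOXM1 (14.9 FPKM).

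**Figure D1:**
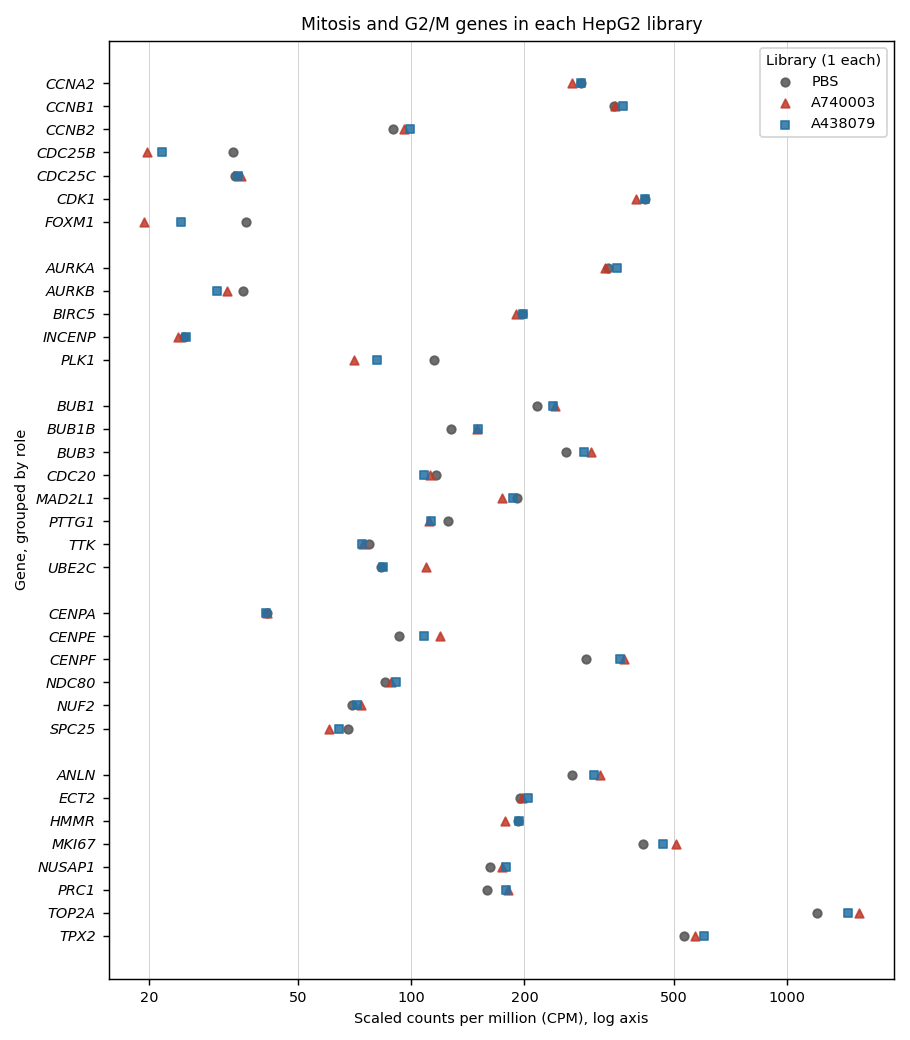
Scaled counts (CPM) on a log axis for each of the 34 genes, grouped by role, with 1 point for each library. For most genes the 3 points lie close together, while FOXM1, PLK1 and CDC25B lie lower in both antagonist libraries than in the PBS library.

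RefSeq promoter windows (GRCh38.p14) were at hand for 27 of the 34 genes, and 4 are shown because a shared promoter element is a known feature of late cell cycle genes. There was none for AURKA, BUB3, TTK, TPX2, BIRC5, UBE2C or FOXM1. The element, the cell cycle genes homology region (CHR), was searched as TTTGAA or TTTAAA, and the CCAAT boxes that often lie near it as CCAAT. Both strands of the 250 bases before each start were searched, and TTTAAA reads the same on both. The CHR letters were present for 20 of the 27 genes, that is in 23 of their 37 windows (62.2%), against 21.9% of all 35116 windows of that length. CCAAT was present for 22 genes, in 27 of 37 windows (73.0%) against 32.0%. Both were present in 19 of 37 windows (51.4%), against 7.64% of all windows. The 4 windows are those of PLK1, which stood lower in both antagonist libraries, CCNB1, which stood near PBS, and TOP2A and CENPF, which stood above it. They are written 5′ to 3′ on the gene's strand, and capitals mark the searched letters and their reverse complements.
PLK1, chr16:23678639-23678888, plus strand: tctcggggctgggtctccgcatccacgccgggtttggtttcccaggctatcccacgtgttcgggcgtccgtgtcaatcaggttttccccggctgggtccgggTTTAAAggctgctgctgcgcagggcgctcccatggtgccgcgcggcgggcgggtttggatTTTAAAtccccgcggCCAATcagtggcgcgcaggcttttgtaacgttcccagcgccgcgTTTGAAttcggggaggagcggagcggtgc
CCNB1, chr5:69166900-69167149, plus strand: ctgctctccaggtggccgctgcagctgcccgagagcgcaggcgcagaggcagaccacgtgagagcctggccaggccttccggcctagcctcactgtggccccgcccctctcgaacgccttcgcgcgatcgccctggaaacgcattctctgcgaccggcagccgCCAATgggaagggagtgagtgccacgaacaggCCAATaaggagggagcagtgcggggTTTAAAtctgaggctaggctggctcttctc
TOP2A, chr17:40417897-40418146, minus strand: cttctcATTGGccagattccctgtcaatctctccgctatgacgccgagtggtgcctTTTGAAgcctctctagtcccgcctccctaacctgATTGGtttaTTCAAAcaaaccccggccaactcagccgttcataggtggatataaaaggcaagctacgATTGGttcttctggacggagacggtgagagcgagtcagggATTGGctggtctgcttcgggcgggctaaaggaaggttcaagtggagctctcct
CENPF, chr1:214602945-214603194, plus strand: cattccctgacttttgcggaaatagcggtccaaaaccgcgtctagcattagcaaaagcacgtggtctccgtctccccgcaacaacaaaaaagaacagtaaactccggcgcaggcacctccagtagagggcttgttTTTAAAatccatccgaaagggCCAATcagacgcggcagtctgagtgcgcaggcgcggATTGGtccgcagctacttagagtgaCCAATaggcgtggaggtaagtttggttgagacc
All 4 are among the 19 windows that held both sets of letters, so the choice of windows fixed this likeness. FOXM1 had no window. Whether these letters go with the ratios over PBS was not tested. In PLK1 a TTTGAA ended 23 bases before the start and a CCAAT 68 bases before it. In CCNB1 a TTTAAA ended 24 bases before the start, with CCAAT 50 and 82 bases before it. CDC25B, which also stood lower, had 4 windows, and none of them held the CHR letters in these 250 bases, although CDC25B had a match when the 50 bases after the start were included. A match describes letters of the reference sequence and does not show that a factor binds there.

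The A740003 library was first set against the PBS library. FOXM1, PLK1 and CDC25B stood well below PBS, and the other 31 genes lay within 1.5-fold of it in either direction. FOXM1 encodes a transcription factor of G2 and M genes, PLK1 a kinase of mitotic entry and spindle assembly, and CDC25B a phosphatase that activates CDK1. CDK1 and CCNB1 were close to PBS, at 0.946 and 1.0 times its level. UBE2C, TOP2A, CENPE and CENPF stood highest, at 1.26 to 1.32 times PBS.

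FOXM1 (ENSG00000111206; chromosome 12, 2857681 to 2877155, minus strand, GENCODE release 29 on GRCh38) had 387 counts with A740003, 471 with A438079 and 704 with PBS. The ratio of scaled counts, A740003 over PBS, was 0.536 (95% counting interval 0.472 to 0.608). PLK1 (ENSG00000166851; chromosome 16, 23677656 to 23690367, plus strand) had 1401, 1565 and 2236 counts in the same order, and a ratio of 0.611 (0.571 to 0.654). In both genes PBS was the highest library and A740003 the lowest. CDC25B (ENSG00000101224; chromosome 20, 3786772 to 3806121, plus strand) had 394, 420 and 650 counts, in that same order of libraries, and a ratio of 0.591 (0.520 to 0.671). The expected counts of FOXM1 and PLK1 were not whole in every library, and both genes overlap exons of other genes. Summed with its neighbour ITFG2, FOXM1 stood at 0.582 times PBS (0.518 to 0.653), and PLK1 summed with ERN2 at 0.615 times (0.575 to 0.657). The antisense gene AC008870.3, which also overlaps exons of PLK1, had no single row and is not in that sum.

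A gene was called lower or higher when its ratio reached 1.5-fold and the interval excluded 1. By this rule 3 of 34 genes were called lower with A740003 and 0 higher. Of all 12270 genes, 10.7% were called lower and 3.14% higher, so the share of the group called lower, 8.82%, was near that of all genes. Among the 5900 genes with a mean level at least that of the lowest member, 2.25% were called lower and 0.627% higher. Against genes at its level, the share of the group called lower was thus the larger, though it rests on 3 genes. The median log2 ratio of the 34 genes was 0.01, against 0.001 over all genes and 0.04 over those 5900. The log2 ratios of 18 genes lay above 0 and of 16 below, or 24 and 10 under upper quartile scaling. Ratios lay between 0.8 and its inverse for 27 of the 34 genes (79.4%), against 65.6% of all genes and 82.2% of the 5900.

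Among the genes of mitotic entry, CDK1 had 7876, 8111 and 8122 counts with A740003, A438079 and PBS, and stood at 0.946 times (0.917 to 0.976) the PBS level. CCNB1, the main mitotic cyclin, had 6932, 7078 and 6745 counts and stood at 1.0 times (0.969 to 1.04). CCNB2, its relative, stood at 1.07 times (1.0 to 1.14) and CCNA2, the cyclin of S phase and G2, at 0.950 times (0.915 to 0.987). CDC25C, a further CDK1-activating phosphatase, stood at 1.04 times (0.933 to 1.16). CDK1 and the cyclins thus lay much closer to PBS than CDC25B and FOXM1 did.

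Of the mitotic kinases and chromosomal passengers, all 5 had log2 ratios below 0 with A740003, although under upper quartile scaling only PLK1 and AURKB did. AURKA, the centrosomal Aurora kinase, had 6521, 6835 and 6502 counts and stood at 0.978 times (0.945 to 1.01) the PBS level. AURKB, the Aurora kinase of the chromosomal passenger complex, had 642, 588 and 690 counts and stood at 0.908 times (0.814 to 1.01). BIRC5, which encodes survivin of the same complex, had 3786, 3838 and 3835 counts and stood at 0.963 times (0.920 to 1.01), and its scaffold gene INCENP at 0.963 times (0.847 to 1.10). The intervals of these 4 genes all include 1.

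Genes of the spindle checkpoint and of anaphase control lay on both sides of PBS. BUB1, BUB1B and BUB3, which encode checkpoint proteins at kinetochores, stood at 1.12 times (1.07 to 1.17), 1.18 times (1.11 to 1.24) and 1.17 times (1.12 to 1.21) the PBS level. MAD2L1, whose product inhibits CDC20, stood at 0.911 times (0.869 to 0.954), and TTK, a checkpoint kinase gene, at 0.962 times (0.895 to 1.03). The BUB genes were thus somewhat above PBS, and MAD2L1 somewhat below. CDC20, the activator of the anaphase-promoting complex, had 2236, 2089 and 2263 counts and stood at 0.964 times (0.909 to 1.02), and PTTG1, the securin gene, at 0.891 times (0.840 to 0.944). UBE2C (chromosome 20, 45812576 to 45816957, plus strand), which encodes a ubiquitin-conjugating enzyme of that complex, had 2182, 1631 and 1616 counts. Its ratio of 1.32 (1.23 to 1.41) was the highest of the group, with A438079 close to PBS.

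At centromeres and kinetochores, CENPF and CENPE stood highest. CENPF, a kinetochore protein gene, had 7321, 6974 and 5680 counts and stood at 1.26 times (1.21 to 1.30) the PBS level. CENPE, a kinetochore motor gene, had 2368, 2090 and 1801 counts and stood at 1.28 times (1.21 to 1.36). By counts A740003 was the highest library and PBS the lowest in both genes. By FPKM A438079 was the highest, with 59.5, 65.0 and 49.9 FPKM for CENPF and 14.8, 15.2 and 11.9 FPKM for CENPE in the A740003, A438079 and PBS libraries. CENPA, the gene of the centromeric histone, stood at 0.997 times (0.904 to 1.10). The genes of the NDC80 complex, which binds microtubules, lay around PBS, with NDC80 at 1.04 times (0.971 to 1.11), NUF2 at 1.06 times (0.980 to 1.14) and SPC25 at 0.892 times (0.825 to 0.966).

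Of the 8 genes of the spindle, cytokinesis and mitotic chromosomes, 7 had log2 ratios above 0 with A740003, and the intervals of 6 lay above 1. TOP2A (chromosome 17, 40388516 to 40417950, minus strand) stood at 1.30 times (1.27 to 1.32) the PBS level. MKI67, the gene of the proliferation antigen Ki-67, had 10075, 9088 and 8038 counts and stood at 1.22 times (1.19 to 1.26). In both genes A740003 was the highest library and PBS the lowest. ANLN, a cytokinetic ring gene, stood at 1.19 times (1.14 to 1.23), and PRC1, whose product bundles midzone microtubules, at 1.14 times (1.08 to 1.19). The spindle genes NUSAP1, TPX2 and HMMR stood at 1.08 times (1.02 to 1.13), 1.06 times (1.04 to 1.09) and 0.925 times (0.883 to 0.968). ECT2, which encodes the exchange factor that starts furrowing, stood at 1.01 times (0.970 to 1.06).

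**Figure D2:**
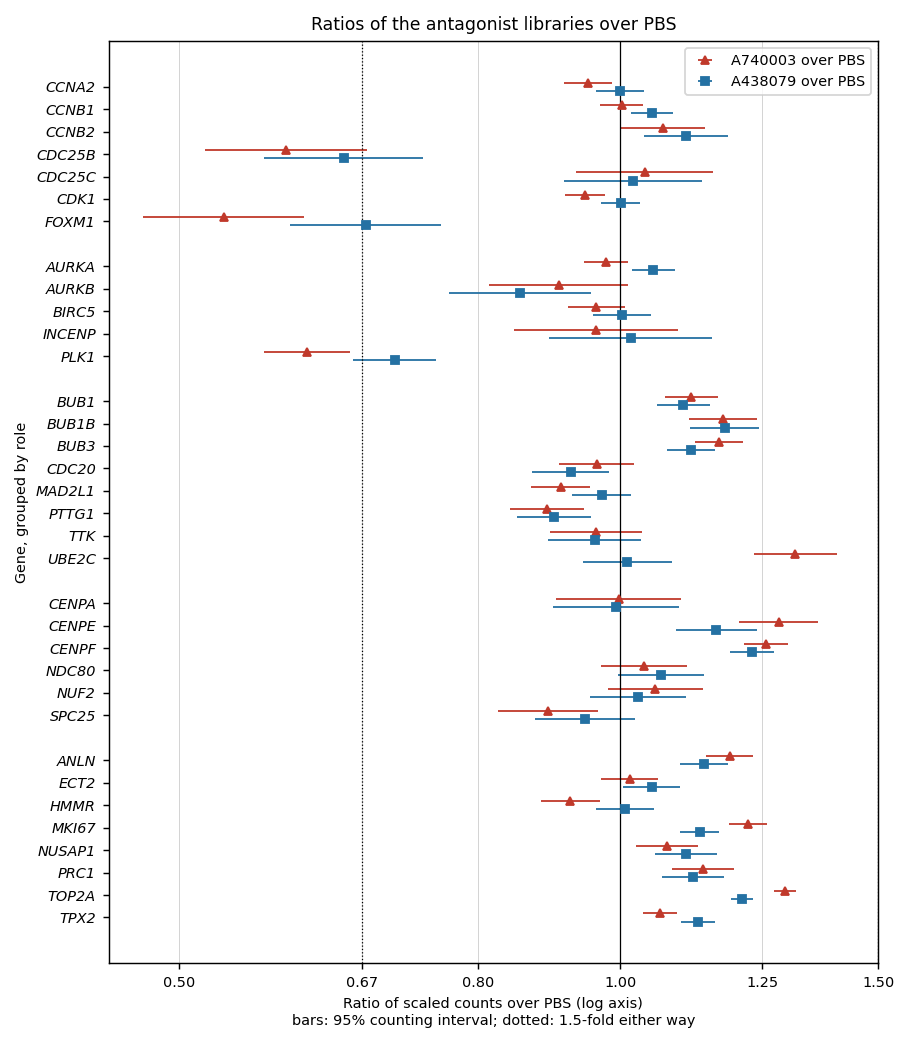
Ratios of scaled counts over PBS for each gene on a log axis, with bars for the 95% counting interval and dotted lines at 1.5-fold. FOXM1, PLK1 and CDC25B lie at 0.536 to 0.611 with A740003 and at 0.647 to 0.701 with A438079, and the other 31 genes lie between 0.854 and 1.32.

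The A438079 library was set against the same PBS library, so these values are not independent of those above. CDC25B was the lowest gene, and FOXM1 and PLK1 followed. CDK1, CCNA2, BIRC5 and UBE2C lay at the PBS level within their counting intervals. CENPF, TOP2A and BUB1B stood highest, at 1.18 to 1.23 times PBS.

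CDC25B stood at 0.647 times (0.571 to 0.733) the PBS level and alone was called lower. FOXM1, at 0.670 times (0.595 to 0.754), was just short of 1.5-fold, and PLK1 stood at 0.701 times (0.657 to 0.748). No member was called higher. Over all genes 9.44% were called lower and 1.63% higher, so the share of the group called lower, 2.94%, was below that of all genes. Among the 5900 genes at the members' levels, 1.49% were called lower and 0.153% higher. The share of the group called lower was above that 1.49%, but it rests on CDC25B alone. The median log2 ratio of the group was 0.03, against -0.004 over all genes and 0.05 over the 5900. Ratios lay between 0.8 and its inverse for 31 of 34 genes (91.2%), against 72.2% of all genes and 89.9% of the 5900.

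In the entry group, CDK1 stood at 1.0 times (0.970 to 1.03) and CCNA2 at 1.0 times (0.963 to 1.04) the PBS level with A438079. CCNB1 stood at 1.05 times (1.02 to 1.09), CCNB2 at 1.11 times (1.04 to 1.18) and CDC25C at 1.02 times (0.915 to 1.14). The B-type cyclins thus lay slightly above PBS. AURKA stood at 1.05 times (1.02 to 1.09), BIRC5 at 1.0 times (0.959 to 1.05) and INCENP at 1.02 times (0.894 to 1.16). AURKB, at 0.854 times (0.764 to 0.954), had the next lowest ratio after CDC25B, FOXM1 and PLK1.

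Among checkpoint and anaphase genes, BUB1, BUB1B and BUB3 stood at 1.10 times (1.06 to 1.15), 1.18 times (1.12 to 1.24) and 1.12 times (1.08 to 1.16) the PBS level with A438079. CDC20 stood at 0.925 times (0.871 to 0.982) and PTTG1 at 0.901 times (0.850 to 0.955). The BUB genes thus lay above PBS, and CDC20 and PTTG1 below it. MAD2L1 at 0.971 times (0.927 to 1.02), TTK at 0.960 times (0.893 to 1.03) and UBE2C at 1.01 times (0.943 to 1.08) had intervals that include 1.

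CENPF stood at 1.23 times (1.19 to 1.27) and CENPE at 1.16 times (1.09 to 1.24) the PBS level with A438079. CENPA, NDC80, NUF2 and SPC25 stood at 0.993, 1.07, 1.03 and 0.946 times, with intervals that include 1. All 8 genes of the spindle, cytokinesis and chromosome group had log2 ratios above 0, except that HMMR lay below 0 under scaling by total counts, and the intervals of 7 lay above 1. TOP2A stood at 1.21 times (1.19 to 1.23), ANLN at 1.14 times (1.10 to 1.18), MKI67 at 1.13 times (1.10 to 1.17) and TPX2 at 1.13 times (1.10 to 1.16). PRC1, NUSAP1 and ECT2 stood at 1.12, 1.11 and 1.05 times. HMMR, at 1.01 times (0.962 to 1.05), had an interval that includes 1.

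**Figure D3:**
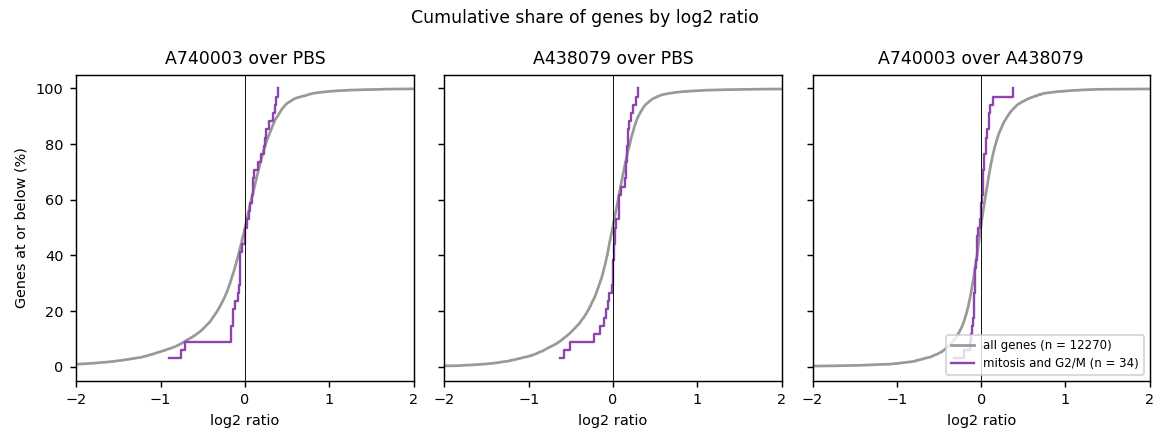
Cumulative share of genes (%) by log2 ratio in each of the 3 comparisons, for the 34 genes and for all 12270 genes compared. Both lines cross 50% close to 0 in each panel, at member medians of 0.01, 0.03 and -0.03.

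As a single pair of compounds with matched concentration and duration, A740003 was then set against A438079. No member was called in either direction, while 2.44% of all genes were called higher and 2.81% lower with A740003. Among the 5900 genes at the members' levels these shares were only 0.203% and 0.220%, so few calls occurred at such levels. UBE2C was the highest, at 1.30 times (1.22 to 1.39) the A438079 level, and FOXM1 the lowest, at 0.800 times (0.697 to 0.917). The median log2 ratio was -0.03, against -0.004 over all genes. Ratios lay between 0.8 and its inverse for 32 of 34 genes (94.1%), against 80.7% of all genes and 96.3% of the 5900 at the members' levels.

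PLK1 stood at 0.872 times (0.810 to 0.937) the A438079 level and CDC25B at 0.913 times (0.794 to 1.05), whose interval includes 1. Of the 7 entry genes, 6 had log2 ratios below 0, under each scaling run. CDK1 stood at 0.945 times (0.916 to 0.975), CCNB1 at 0.953 times (0.922 to 0.986) and CCNA2 at 0.951 times (0.915 to 0.987). HMMR, AURKA, MAD2L1 and TPX2, at 0.918, 0.929, 0.938 and 0.942 times, also had intervals below 1. By FPKM, HMMR and AURKA stood at 1.01 and 1.01 times instead. Those of CENPE (1.10 times), MKI67 (1.08 times), TOP2A (1.07 times), BUB3 (1.05 times) and ANLN (1.04 times) lay above 1. Whether such differences exceed the spread between cultures was not tested, for lack of replicate libraries.

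The ratios over PBS moved with the GC content of the transcripts. The members' median GC content was 43.2%, against 47.8% over all genes with a value. The 6 members with the most GC were INCENP (59.6%), CDC25B (59.3%), CDC20 (57.9%), PLK1 (57.3%), FOXM1 (55.6%) and AURKB (55.6%). The 3 genes called lower with A740003 were among them. Over the 34 genes, Pearson's r between log2 ratio and GC content was -0.54 with A740003 and -0.64 with A438079, and Spearman's rho was -0.28 and -0.41. Over 11906 genes r was -0.36 and -0.38. These values describe genes that share the same libraries, and genes are not independent replicates.

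Of all 3075 genes with at least the GC content of AURKB, 28.7% were called lower with A740003, against 3 of the 6 members, and 26.0% with A438079, against 1 of 6. For the 853 such genes at the members' levels these shares were 10.4% and 7.62%. The cut was a member's own GC content, and FOXM1 lay just above it. At the upper quartile of GC content over all genes, 55.9%, only 4 members remained, without FOXM1. The share of members called thus depends on where the cut lies, and nothing is concluded from it. With the trend in GC content and length taken out, FOXM1 stood at a log2 ratio of -0.74 with A740003 and -0.44 with A438079, against -0.90 and -0.58 before. PLK1 stood at -0.70 and -0.46, against -0.71 and -0.51. FOXM1 and PLK1 thus kept most of their distance from PBS with A740003. CDC25B moved more, to -0.39 and -0.31 from -0.76 and -0.63, and was then called in neither comparison. TOP2A moved from 0.37 to 0.19 with A740003 and CENPE from 0.36 to 0.14, while UBE2C stood at 0.40 before and 0.40 after. INCENP, with the highest GC content, turned from -0.05 to 0.44 with A740003. The trend was taken over genes of like GC content and length, whatever their level. With A740003 the median log2 ratio was -0.26 over the 3075 genes and -0.12 over the 853 at the members' levels. Taking the trend out may thus raise GC-rich genes at such levels too far, here and in the lists below, which was not tested. The part of GC content in these ratios was not tested further.

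**Figure D4:**
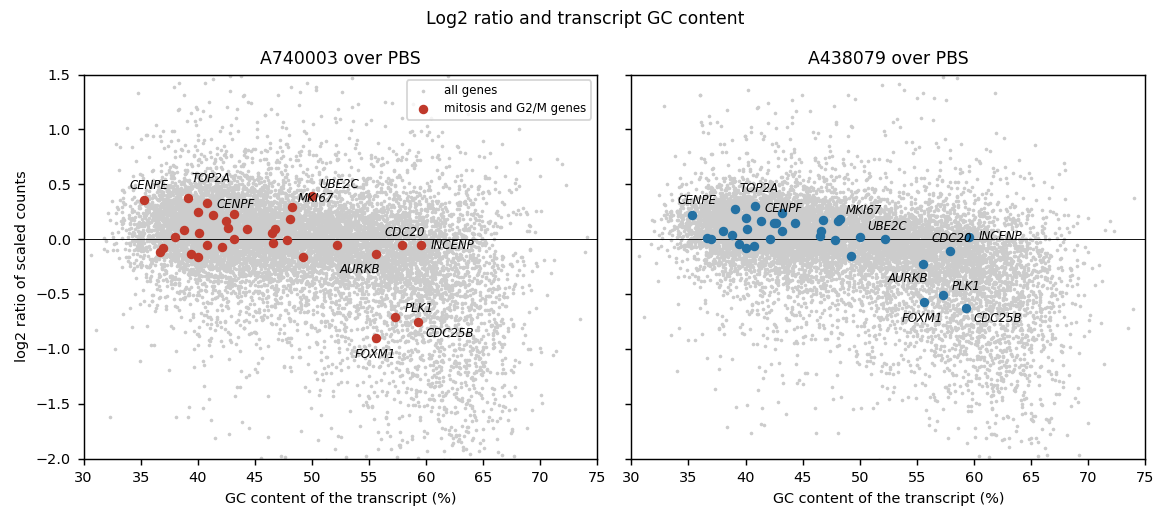
Log2 ratio over PBS against transcript GC content (%) for the 34 genes (large points) and other genes (small grey points, those outside the axes not shown), for A740003 on the left and A438079 on the right. FOXM1, PLK1 and CDC25B lie at the right of each panel, where the grey points also extend downward, while CDC20 and INCENP with similar GC content lie closer to 0.

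The authors' FPKM gave a ratio within 10% of the count ratio for 28 of 34 genes with A740003 over PBS, for 31 with A438079 over PBS and for 26 with A740003 over A438079. INCENP departed most over PBS. It had 475, 488 and 481 expected counts with A740003, A438079 and PBS, near-equal in all 3 libraries. Its FPKM was 6.54, 8.58 and 14.2, so that its FPKM ratios over PBS were 0.460 and 0.604 against count ratios of 0.963 and 1.02. The length implied by counts and FPKM was 3680 nt, 2901 nt and 1747 nt, so the level of INCENP is uncertain. With A740003, BUB1B had an FPKM ratio of 1.44 against a count ratio of 1.18, TTK of 1.18 against 0.962 and PRC1 of 0.904 against 1.14. BIRC5 had 0.818 against 0.963 and BUB3 1.29 against 1.17, the remaining departures beyond 10% over PBS with A740003. Between the antagonists CENPE had 0.969 against 1.10, CENPF 0.916 against 1.02 and BUB1B 1.30 against 0.998, so that these directions turned between the scales. The directions of PRC1 (0.850 against 1.02), HMMR (1.01 against 0.918) and AURKA (1.01 against 0.929) turned as well. TTK had 1.19 against 1.0. The FPKM ratios of FOXM1, PLK1 and CDC25B were 0.541, 0.609 and 0.571 with A740003 and 0.652, 0.678 and 0.598 with A438079, close to their count ratios.

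**Figure D5:**
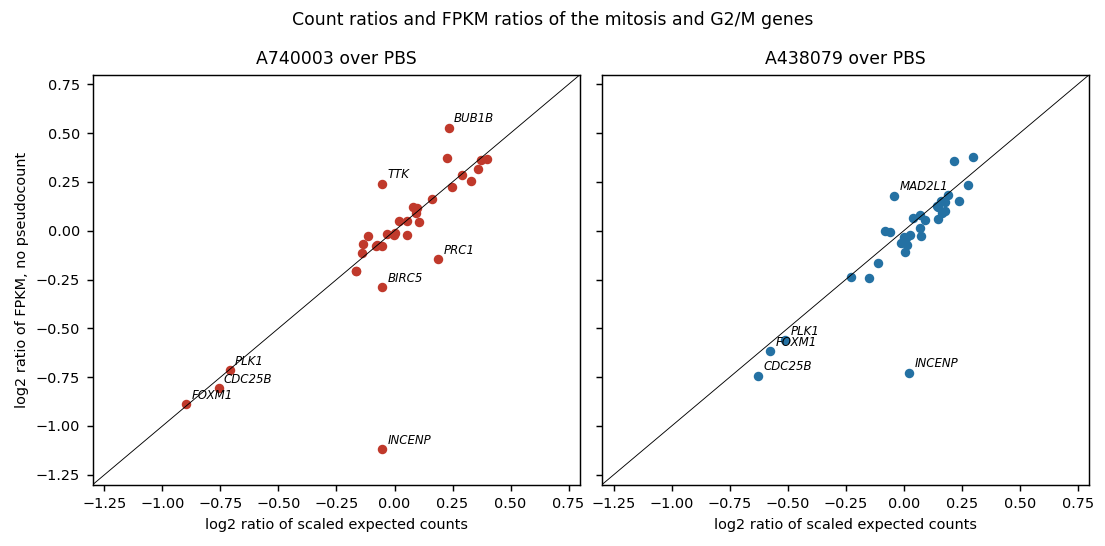
Log2 ratio of the authors' FPKM against log2 ratio of scaled expected counts over PBS, 1 point for each of the 34 genes, with the line of equality, for A740003 on the left and A438079 on the right. Most points lie near the line, and INCENP lies below it in both panels, at FPKM ratios of 0.460 and 0.604.

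Counts of called members depended on the limit and scale, and so did the background. At a 2-fold limit 0 members were called lower with A740003, against 5.46% of all genes, and 0 with A438079, against 3.74%. At a smaller limit, a ratio of 0.8 or its inverse, 4 were called higher with A740003 (UBE2C, TOP2A, CENPE and CENPF), against 11.1%, and 3 lower, against 16.8%. With A438079, 0 were then higher, against 6.01%, and 3 lower, against 15%. Between the antagonists UBE2C was then called higher with A740003 and FOXM1 lower, against 5.67% and 5.96% of all genes. Lower calls with A438079 numbered 2 (CDC25B and FOXM1) under scaling by total counts, against 9.83%, and 0 under upper quartile scaling, against 8.24%. From FPKM with a pseudocount of 0.1, 4 were called lower with A740003, INCENP added, against 12.1%, and 3 with A438079, against 11.6%. With a pseudocount of 1 it was 2 with A438079, against 6.72%. With the GC and length trend out, FOXM1 and PLK1 were called lower with A740003, against 6.48%, and 0 members with A438079, against 4.75%. Among the 22 members with whole counts in every library CDC25B alone was called lower with A740003, against 12.4% of all such genes.

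Other genes of the cell cycle were set beside the group in lists by function. Of 21 genes of the DREAM and MuvB complexes, B-MYB and the E2F family, 3 were called lower with A740003 and 1 with A438079 (14.3% and 4.76%, against 10.7% and 9.44% of all genes), and none higher. They were MYBL2, E2F1 and E2F2 with A740003 and E2F1 with A438079. The median log2 ratios of the list over PBS were 0.03 with A740003 and 0.03 with A438079. MYBL2, which encodes B-MYB, had 2124, 2434 and 3371 counts with A740003, A438079 and PBS, and stood at 0.615 times (0.582 to 0.649) and 0.723 times (0.686 to 0.762) the PBS level. E2F1, an activator of S phase genes, had 426, 347 and 636 counts and stood at 0.653 and 0.547 times. MYBL2 and E2F1 thus lay on the side of FOXM1, with PBS the highest library. Their transcripts are rich in GC (60.5% and 62.5%), and with that trend out their log2 ratios with A740003 were -0.32 and -0.20. None of the list was then called lower with either antagonist. E2F7 and E2F8, repressors of the same family, were on the other side, at 1.30 and 1.41 times PBS in the A740003 library and 1.19 and 1.22 times in the A438079 library.

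A list of 17 genes held brakes on mitotic entry and damage checkpoint genes, but also genes that promote entry, such as CDC25A and MASTL. Of these 17 genes, 2 were called lower with A740003 and 2 with A438079 (11.8% and 11.8%, against 10.7% and 9.44% of all genes), and none higher. They were PKMYT1 and CCNF with A740003 and PKMYT1 and GADD45B with A438079. The medians were -0.01 with A740003 and -0.06 with A438079. WEE1, the kinase that restrains CDK1, had 602, 659 and 874 counts and stood at 0.672 times (0.605 to 0.746) and 0.755 times (0.682 to 0.837) the PBS level, short of 1.5-fold in both. Its transcript has a GC content of 40.8%, and with the trend out its log2 ratios were -0.69 and -0.51. With the trend out WEE1 was the 1 gene of the list called lower with A740003, and none was with A438079. CCNF, a cyclin that serves in a ubiquitin ligase, stood at 0.618 and 0.728 times. CHEK1, the checkpoint kinase, stood at 1.21 and 1.08 times, and MASTL, a kinase of mitotic entry, at 1.21 and 1.14 times.

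Of 22 genes of the anaphase-promoting complex and its regulators, 2 were called lower with A740003 and 1 with A438079 (9.09% and 4.55%, against 10.7% and 9.44% of all genes), and none higher, with medians of 0.05 with A740003 and 0.06 with A438079. FZR1 had 65, 70 and 105 counts with A740003, A438079 and PBS, and stood at 0.604 and 0.668 times the PBS level. It was called with A740003 and fell just short of 1.5-fold with A438079. ESPL1, the separase gene, was called with both, had 241, 290 and 445 counts and stood at 0.528 and 0.653 times the PBS level. With the GC and length trend out neither was called, with log2 ratios of -0.23 and -0.06 for ESPL1, and FZR1 turned from -0.72 to 0.37 with A740003. The subunit genes ANAPC11, ANAPC1 and ANAPC2 stood at 1.48, 1.35 and 0.760 times with A740003, and ANAPC2 turned to a log2 ratio of 0.13 with the trend out. With A438079 ANAPC2 stood at 0.669 times, and at a log2 ratio of -0.07 with the trend out. Of 13 other mitotic kinesin genes KIF18B alone was called, with 145, 155 and 287 counts, at 0.493 times (0.401 to 0.604) and 0.541 times (0.442 to 0.660). That is 7.69% of the list, against 10.7% and 9.44% of all genes, and with the trend out KIF18B was called with A740003 and not with A438079. The kinesins KIF11, KIF14 and KIF20B stood at 1.26, 1.29 and 1.21 times with A740003, and the medians of the list were 0.16 with A740003 and 0.09 with A438079.

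None of 20 condensin and cohesin genes was called, and 19 had log2 ratios above 0 with A740003 and 19 with A438079. The medians were 0.23 with A740003 and 0.20 with A438079, and 0.09 and 0.07 after the GC and length trend was taken out. SMC1A and STAG1 of cohesin and NCAPG of condensin stood at 1.28, 1.27 and 1.29 times the PBS level with A740003, and NCAPH2 of condensin at 0.707 times. Of 22 further spindle, centrosome and cytokinesis genes none was called, with medians of 0.20 with A740003 and 0.14 with A438079. TACC1, CKAP5, DEPDC1 and NUMA1 stood at 1.48, 1.37, 1.27 and 0.765 times with A740003. NUMA1, with a GC content of 59.5%, turned from a log2 ratio of -0.39 to 0.77 with the GC and length trend out. None of 30 further kinetochore and centromere genes was called, with medians of 0.04 with A740003 and 0.04 with A438079. KNL1, CENPL, CENPK and PMF1 stood at 1.36, 1.30, 0.974 and 0.805 times with A740003.

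Of 30 genes of G1/S and replication, 2 were called lower with A740003 and 2 with A438079 (6.67% and 6.67%, against 10.7% and 9.44% of all genes), and none higher, with medians of -0.0006 with A740003 and -0.003 with A438079. POLD1, the catalytic subunit gene of DNA polymerase delta, had 70, 71 and 203 counts and stood at 0.336 and 0.350 times PBS. CDT1, a replication licensing gene, had 82, 87 and 174 counts and stood at 0.460 and 0.501 times. Their GC contents are 65.0% and 64.9%, and with that trend out the log2 ratios with A740003 were -0.62 and -0.33, and POLD1 was still called while CDT1 was not. POLE, a polymerase epsilon gene, stood at 0.744 times with A740003, and turned from a log2 ratio of -0.43 to 0.26 with the trend out. CCNE2, an E-type cyclin gene, stood at 1.33 times.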

How the data were processed

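RNA of 3 HepG2 cultures was purified with RNeasy columns, and SMARTer mRNA libraries were sequenced, per the labels' protocols. The letter in each sample's label matched it to a column. The authors deposited expected counts per gene, of which 33.3% to 35.1% of values above 0 were not whole (over 0.005 from a whole number), and FPKM. Per the submitters' processing notes the build was GRCm38, which is murine, whereas the genes are human. The sources used here name no aligner, counter, annotation or strand setting, so overlapping and antisense genes are uncertain. The 116 rows lacking an Ensembl identifier (0.0775% to 0.0853% of counts) stayed in the totals.

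The tests had been planned for counts, so expected counts were rounded. Library sizes were TMM-scaled (edgeR 4.0.16, R 4.3.3), and 1 CPM was 19.4 to 19.9 counts. Ratios carry exact conditional binomial (Clopper-Pearson) 95% intervals (scipy 1.17.1), and log2 ratios a pseudocount of 0.5 counts. The ratio, interval, call and trend steps were tested on simulated data. GC content and length of the longest transcript came from GENCODE release 29 for 11906 of 12270 genes (97.0%). Their trend is the median of the 201 genes nearest in both, whatever their level. The implied length is counts over FPKM and library total. Counts are given by rule for called members, for CDK1, CCNB1, MKI67, TOP2A, PLK1, AURKA, AURKB, BIRC5, CDC20 and FOXM1, and for each comparison's extremes. Those of CENPE, CENPF and INCENP were added after their values were seen. Up to 4 genes of each other list, with a mean of 5 CPM or more and the widest departure from PBS, are named. The called genes FZR1, PKMYT1, GADD45B and E2F2, the markers ALB and HNF4A, and the markers at or near 0 were added after their values were seen. The members and lists were chosen with earlier results of these data known. Alternatives were other scalings (DESeq2 1.42.0 among them), filters, limits, unrounded or whole counts, FPKM, the GC and length trend, protein-coding genes and, added after seeing the data, sums with overlapping genes.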

Additional observations from a re-analysis of the deposited data

How the results depend on the processing

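With A740003 over PBS the median log2 ratio of the group ran from -0.015 (FPKM) to 0.07 (upper quartile scaling), against 0.01 in the main run. Under upper quartile scaling the median over all genes was 0.06. With A438079 over PBS the group ran from 0.007 (FPKM with a pseudocount of 1) to 0.08 (upper quartile scaling). Between the antagonists it was -0.03 in the main run and 0.002 under total counts. Size and, in the first and last of these comparisons, sign thus depended on the run. Each move was within the usual width of a single member's counting interval to one side, a wide measure for a median of 34 genes. The 3 members called lower with A740003 over PBS became 0 at a 2-fold limit and 1 among the 22 with whole counts, where FOXM1 and PLK1 are left out, 4 from FPKM with either pseudocount, where INCENP is added, and 2 without the GC and length trend, where CDC25B is lost. The 0 called higher became 4 at the limit of 0.8 or its inverse. The 1 called lower with A438079 over PBS became 2 under total counts, 0 under upper quartile scaling, 0 at 2-fold, 3 at the limit of 0.8, 3 and 2 from FPKM with pseudocounts of 0.1 and 1, and 0 without the GC and length trend. Between the antagonists 1 was called lower and 1 higher at the limit of 0.8 or its inverse. FOXM1, PLK1 and CDC25B had log2 ratios over PBS from -0.90 to -0.31 over the alternatives that included them. Apart from the limits and the whole-count set, which act by construction, the cause was not tested. No paired analysis was possible because each treatment was 1 library, and for that reason no library was left out. Counting error was widest for low genes such as INCENP and CDC25B.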
